A study of Mus musculus with 6 samples.

Results

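The 6 arrays described here, which are all 6 arrays of the series, each carry a number 1, 2 or 3 in their titles, and they are compared by that number. Each number is borne by 1 control siRNA array and 1 Hlxb9 siRNA array, so there are 2 arrays per number and 3 per siRNA group. All cells were MIN6, a beta cell line derived from a mouse insulinoma, grown in low glucose medium with serum. Control arrays came from cells given a scrambled siRNA, and Hlxb9 siRNA arrays from cells given an siRNA targeting Hlxb9, a homeodomain factor of beta cells and motor neurons whose current symbol is Mnx1. Both groups had the same delivery, by nucleofection and a lipid reagent, and RNA was taken 72 hours later. RNA went onto arrays only where the western blot showed Hlxb9 protein lowered by more than 75%, so the arrays are a selected set from several transfections described as independent. The labels also call the samples sorted, and name no gate. They do not say what a number stands for, such as a shared day, passage or culture, so the p-values measure the spread between these arrays only. With 1 array per number and siRNA group, that spread is how far the control and Hlxb9 siRNA groups disagree about the numbers. It is not a spread between replicates of the same number and siRNA. The question asked here is which transcripts differed between the numbers in the same direction after either siRNA, with the siRNA effect removed.

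A beta cell takes up glucose through a facilitative transporter, burns it in mitochondria and couples the resulting ATP to calcium entry and insulin release. Mature beta cells are known to keep some housekeeping genes at low levels, among them lactate dehydrogenase A, which diverts pyruvate away from mitochondria. Islets also hold endocrine cells that make glucagon, somatostatin, pancreatic polypeptide or ghrelin, and insulinoma lines can transcribe several of these hormones at once. Hypoxia-inducible factors drive glycolytic genes when oxygen is short, and the integrated stress response drives amino acid transport and synthesis through Atf4 when translation initiation is restrained.

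Signals are log2 values, on which a difference of 1 is a doubling. Median signals lay between 5.08 and 5.20 on the 6 arrays. Control replicate 3 stood apart. On it the Gapdh control signal from the 3' end of the transcript was above that from the 5' end by 2.13, against 0.65 to 0.78 elsewhere, and for beta-actin the excess was 3.22 against 2.41 to 2.69. For the main genes and lists the number 3 difference is therefore also given within the Hlxb9 siRNA arrays. Mnx1 itself read 7.82, 7.50 and 7.77 on control arrays 1, 2 and 3 and 7.53, 7.41 and 7.28 on Hlxb9 siRNA arrays 1, 2 and 3, a number 3 difference of -0.04 ± 0.13 (SE). The beta cell label was borne out at every number by Ins2, encoding insulin, at 13.79 to 13.87, Iapp, the co-secreted islet amyloid peptide, at 14.32 to 14.47, and Pdx1, a homeodomain activator of insulin transcription, at 11.98 to 12.17. Markers of other tissues were mostly dim. The median signal over all probe sets was 5.16, and 4 of 13 acinar and duct markers, 5 of 15 mesenchyme and endothelium markers and 2 of 13 leukocyte markers lay above it. Krt7, a keratin in the acinar and duct list, was bright on all 6 arrays at 11.64 to 11.92. In the leukocyte list, Coro1a read 7.29 to 8.42 and Cd68 6.66 to 7.41.

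Over all probe sets, 44.6% of the sum of squared deviations lay between numbers, 23.3% between siRNA groups and 32.1% in neither. Number has 2 degrees of freedom, siRNA group 1 and the remainder 2, so these shares do not rank number above siRNA group. The deviations of control replicate 3 alone made up 40.9% of the total. Within the control arrays, the difference of number 3 from the mean of 1 and 2 had an SD of 0.40 over probe sets, against 0.23 within the Hlxb9 siRNA arrays. Number 2 minus number 1 had an SD of 0.23 in controls and 0.22 after Hlxb9 siRNA. At least 2-fold differences were counted for 1183 probe sets on control array 3 but 110 on Hlxb9 siRNA array 3. The differences of the siRNA groups correlated over probe sets with r = 0.202 for number 3 and 0.132 for number 2 against 1, where probe sets are not independent and each value is 1 array against others. Over probe sets with a mean signal above the median the order was reversed, with r = 0.158 for number 3 and 0.204 for number 2 against 1.

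Few transcripts passed the test that pools the groups. Number 3 was compared with the mean of numbers 1 and 2 by limma, with siRNA group in the model, and a transcript was called where the Benjamini-Hochberg adjusted p over 45037 probe sets was at most 0.05 and the direction was the same within each siRNA group. For number 3, 4 probe sets were lower (0.00888%) and 0 were higher (0%), with 5390 at an unadjusted p under 0.05, of which 2372 were higher and 3018 lower. Number 2 against number 1 gave 0 calls in either direction (0%), a smallest adjusted p of 1, and 1472 probe sets at an unadjusted p under 0.05. A moderated F test over the numbers, which does not choose which number stands apart, called 3 probe sets (0.00666%), with 3579 at an unadjusted p under 0.05. By limma the count of 4 went to 0 without control replicate 2, to 0 without Hlxb9 siRNA replicate 2, to 46 without control replicate 3 and to 6076 without Hlxb9 siRNA replicate 3, a fit in which number 3 is control replicate 3 alone. With an offset of 32 added on the linear scale the count was 0, with a smallest adjusted p of 0.0557, and with each gene read as the mean of its probe sets it was 43, of which 6 were higher and 37 lower. Ppy and Mucl2 lost their calls without siRNA group in the fit (limma adjusted p = 0.202 and 0.160), and Cdh13 and Dlk1 with numbers 1 and 2 taken as 1 level (0.0758 and 0.174).

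The untested count of shared shifts ran the same way. A shift of at least 0.5 log2 in the same direction within the control arrays and within the Hlxb9 siRNA arrays was seen for 188 probe sets higher on number 3 (0.417%) and 463 lower (1.03%). Number 2 against number 1 gave 105 higher (0.233%) and 104 lower (0.231%). In named genes, this was 80 higher and 179 lower for number 3, and 37 higher and 38 lower for number 2. After each array was centred on its median, number 3 had 294 probe sets higher and 334 lower, so that 53.2% were lower against 71.1% as deposited. As deposited, shifts of at least 0.5 log2 within the control arrays alone numbered 3543 higher and 4382 lower for number 3. Within the Hlxb9 siRNA arrays alone they numbered 717 and 1129. For number 2 against 1 they numbered 1037 and 926 in controls and 859 and 794 after Hlxb9 siRNA. How many would be shared by coincidence was not computed.

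**Figure D1:**
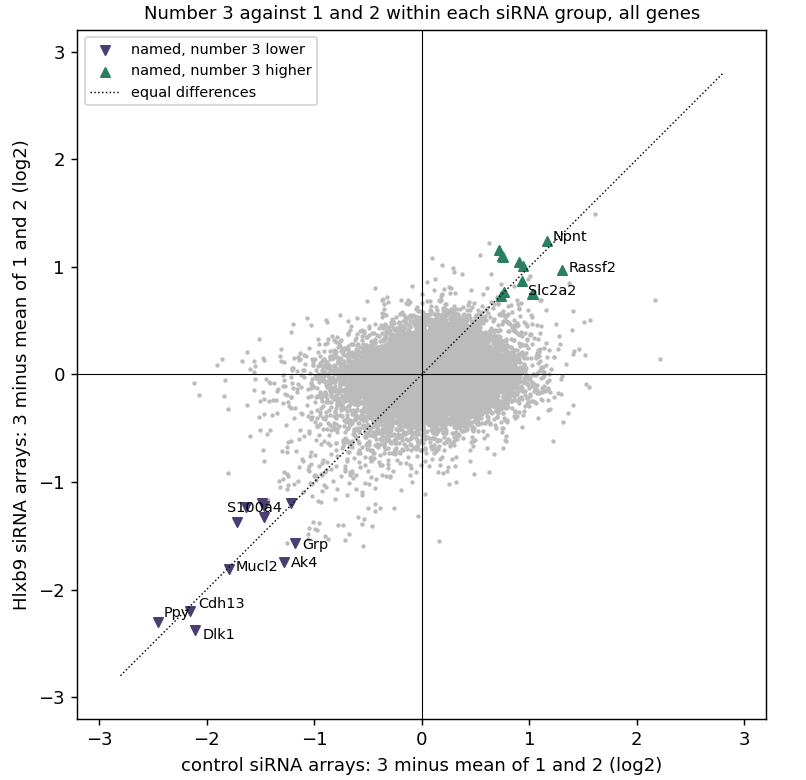
Difference of number 3 from the mean of numbers 1 and 2 in log2, within the control siRNA arrays (horizontal axis) and within the Hlxb9 siRNA arrays (vertical axis), 1 grey point for each of 18193 genes. Triangles mark the 12 genes named lower and the 12 named higher, and Ppy, Cdh13, Dlk1 and Mucl2, the called genes, lie at -1.79 or below on both axes.

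The 4 called transcripts were Ppy, Cdh13, Dlk1 and Mucl2, and all were at least 3.48-fold lower on number 3. Ppy encodes pancreatic polypeptide, the hormone of islet PP cells. It read 9.86, 9.68 and 7.32 on control arrays 1, 2 and 3 and 10.95, 10.76 and 8.55 on Hlxb9 siRNA arrays 1, 2 and 3. Both number 3 arrays lay below the other 4, and numbers 1 and 2 differed by only -0.19 ± 0.13 (SE). The number 3 difference was -2.38 ± 0.12 (SE, limma adjusted p = 0.0152), a level 5.19-fold lower, with -2.45 within controls and -2.30 after Hlxb9 siRNA. When the numbers were permuted within the siRNA groups, which allows 9 assignments, its exact two-sided p was 0.111, the smallest this design can give. The same holds for Slc2a2, Ldha and Ucn3, so a permutation over these arrays cannot reach 0.05. In bulk RNA, fewer Ppy-expressing cells and less Ppy RNA per cell cannot be told apart.

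Cdh13 encodes T-cadherin, a cadherin anchored to the membrane by a lipid. Its signal was 7.36, 6.72 and 4.89 on control arrays 1, 2 and 3 and 7.45, 6.80 and 4.92 on Hlxb9 siRNA arrays 1, 2 and 3. The siRNA groups almost coincided at each number, and number 2 lay between the others. The number 3 difference was -2.17 ± 0.11 (SE, limma adjusted p = 0.0152), a level 4.51-fold lower. Other probe sets of Cdh13 differed by -1.09, -0.56 and 0.01, on signals of 5.32 or less.

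Dlk1 encodes a membrane protein of the Notch ligand family that is imprinted and marks immature endocrine and stromal cells. It stood at 8.44, 7.20 and 5.71 on control arrays 1, 2 and 3 and at 8.49, 7.04 and 5.39 on Hlxb9 siRNA arrays 1, 2 and 3. All 3 numbers were separated, with number 1 highest and number 3 lowest in each group. The number 3 difference was -2.24 ± 0.13 (SE, limma adjusted p = 0.0195), and number 2 lay below number 1 by -1.35 ± 0.15 (adjusted p = 1). A dimmer probe set of Dlk1, which read 4.46 to 5.28, differed by 0.10 for number 3.

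Mucl2, a mucin-like gene, had 6.42, 6.22 and 4.53 on control arrays 1, 2 and 3 and 6.93, 7.03 and 5.17 on Hlxb9 siRNA arrays 1, 2 and 3. Numbers 1 and 2 were close in each group, by -0.19 in controls and 0.10 after Hlxb9 siRNA, and number 3 lay below both. The difference was -1.80 ± 0.12 (SE, limma adjusted p = 0.0432), -1.79 in controls and -1.81 after Hlxb9 siRNA.

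**Figure D2:**
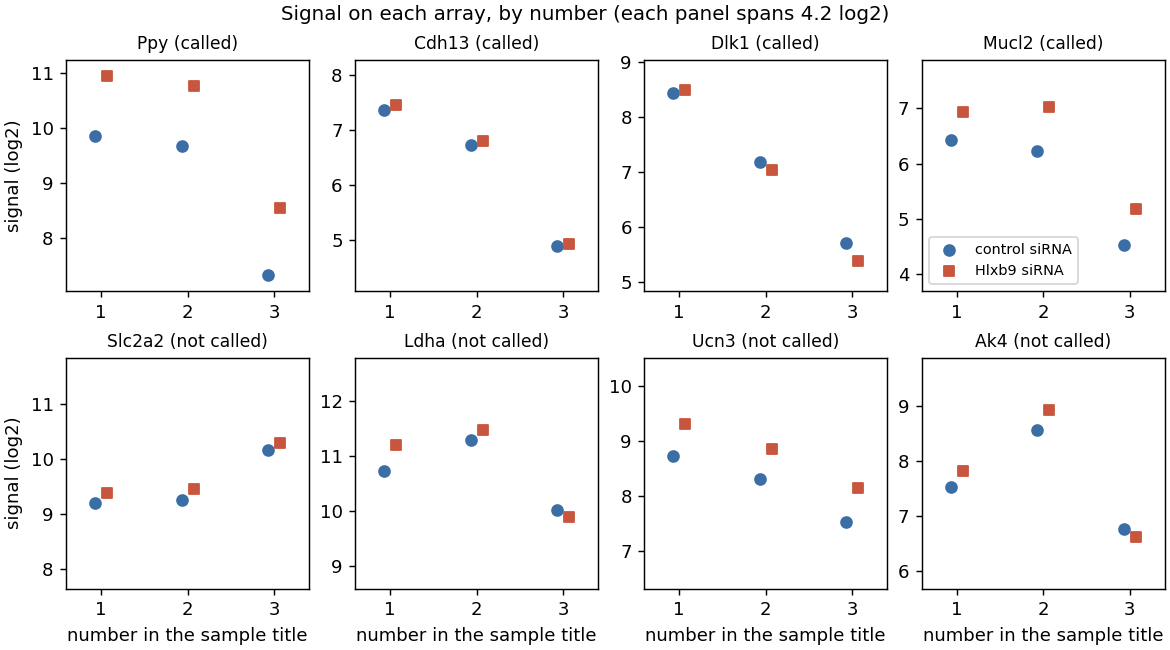
Signal in log2 on each array against the number in its title, for the 4 called genes (top row), the markers Slc2a2, Ldha and Ucn3, and Ak4. Circles are control siRNA arrays and squares Hlxb9 siRNA arrays, 1 array per point with no error bar, and every panel spans the same range. Ppy reads 7.32 and 8.55 on number 3 against 9.68 to 10.95 on the other 4 arrays, and Ak4 is highest on number 2.

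Slc2a2, Ldha and Ucn3, which were looked at with Ppy because earlier results pointed to them, did not pass. Slc2a2 encodes GLUT2, the glucose transporter of rodent beta cells. It read 9.21, 9.27 and 10.17 on control arrays 1, 2 and 3 and 9.38, 9.46 and 10.29 on Hlxb9 siRNA arrays 1, 2 and 3, a difference of 0.90 ± 0.11 (SE, limma adjusted p = 0.122). Numbers 1 and 2 were within 0.08 log2 of each other in each group, and both number 3 arrays lay above all others. Ucn3, encoding urocortin 3, a peptide of mature beta cells, had 8.72, 8.30 and 7.52 on control arrays 1, 2 and 3 and 9.31, 8.85 and 8.14 on Hlxb9 siRNA arrays 1, 2 and 3, with a difference of -0.96 ± 0.11 (limma adjusted p = 0.117). Ucn3 therefore lay at the opposite side from Slc2a2, although both mark the beta cell. Ldha read 10.72, 11.28 and 10.01 on control arrays 1, 2 and 3 and 11.19, 11.48 and 9.90 on Hlxb9 siRNA arrays 1, 2 and 3, a difference of -1.22 ± 0.15 (limma adjusted p = 0.119). It was highest on number 2 and lowest on number 3 in each group. These 3 genes are each read by 1 probe set, and their differences within the Hlxb9 siRNA arrays alone were 0.87 for Slc2a2, -0.94 for Ucn3 and -1.44 for Ldha.

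The next 8 genes named for lower signal on number 3 did not pass and are given as values (limma adjusted p from 0.0845 to 0.133). S100a4, a calcium-binding protein of motile cells, differed by -1.54, Lsamp, a neuronal adhesion molecule, by -1.40, and Cldn7, a tight junction claudin, by -1.34. Ak4, a mitochondrial adenylate kinase induced by hypoxia, differed by -1.51, Ddit4l, an inhibitor of the growth kinase mTOR, by -1.34, Gsto2, a glutathione transferase, by -1.20 and Fam163a by -1.43. Grp, gastrin-releasing peptide, was near the median of all probe sets at 5.42, 5.43 and 4.25 on control arrays 1, 2 and 3 and 6.22, 5.55 and 4.32 on Hlxb9 siRNA arrays 1, 2 and 3. All 8 had both number 3 arrays below the other 4, and within the Hlxb9 siRNA arrays they differed by -1.74 (Ak4) to -1.19 (Gsto2). Probe sets disagreed for Ak4, whose others differed by -1.04, -0.13, 0.16 and 0.26 on signals of 5.22 or less. For Ddit4l the others differed by -1.55 and -1.32, in the same direction.

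Higher signal on number 3 was smaller in size, and 0 of the 12 genes named for it were called (limma adjusted p from 0.0977 to 0.319). Npnt, encoding the integrin ligand nephronectin, read 5.80, 6.19 and 7.16 on control arrays 1, 2 and 3 and 6.08, 6.52 and 7.55 on Hlxb9 siRNA arrays 1, 2 and 3, a difference of 1.20 ± 0.11 (SE). Its other probe sets were higher too, by 0.10 to 1.38. Tff3, a trefoil peptide of mucosal surfaces, differed by 0.98, Calml4, a calmodulin-like protein, by 0.98, Apoc3, an apolipoprotein of liver and gut, by 0.92, and Tmprss2, a membrane serine protease, by 0.89. Iyd, the iodotyrosine deiodinase, differed by 0.89, Slc16a9, a monocarboxylate transporter family member, by 0.73, and Dab1, the adaptor of reelin signalling, by 0.94. Rassf2, a Ras association domain protein, differed by 1.14 and Hecw1, a ubiquitin ligase, by 0.92, each with numbers 1 and 2 at odds between the siRNA groups. Kcnt2, a sodium-activated potassium channel, differed by 0.77, but its number 3 value after Hlxb9 siRNA, 6.72, lay below control array 2 at 6.86. Within the Hlxb9 siRNA arrays the 12 differed by 0.73 (Slc16a9) to 1.24 (Npnt). For Slc16a9, control array 3 at 8.67 lay below Hlxb9 siRNA array 1 at 8.72. For the other 10 of these 12, Slc2a2 among them, both number 3 arrays lay above the other 4.

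Across 24 gene lists, 459 of 504 entries matched a gene on the array, and Ppy was the only member called for number 3. Lists are therefore described by counts and medians, without a test. Over all 18193 genes the median number 3 difference was 0.04, at 0.08 in controls and -0.0094 after Hlxb9 siRNA, and 58.0% of genes were higher. After each array was centred on its median, the median over all genes was 0.10, with 12814 higher and 5379 lower. Centred values of lists are to be read beside that level and not beside 0. Both number 3 arrays lay above the other 4 for 10.4% of genes and below them for 7.22%. At an unadjusted limma p under 0.05, 5.42% of genes were higher and 5.02% lower on number 3, and 1.65% were higher and 1.11% lower on number 2 than on number 1.

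**Figure D3:**
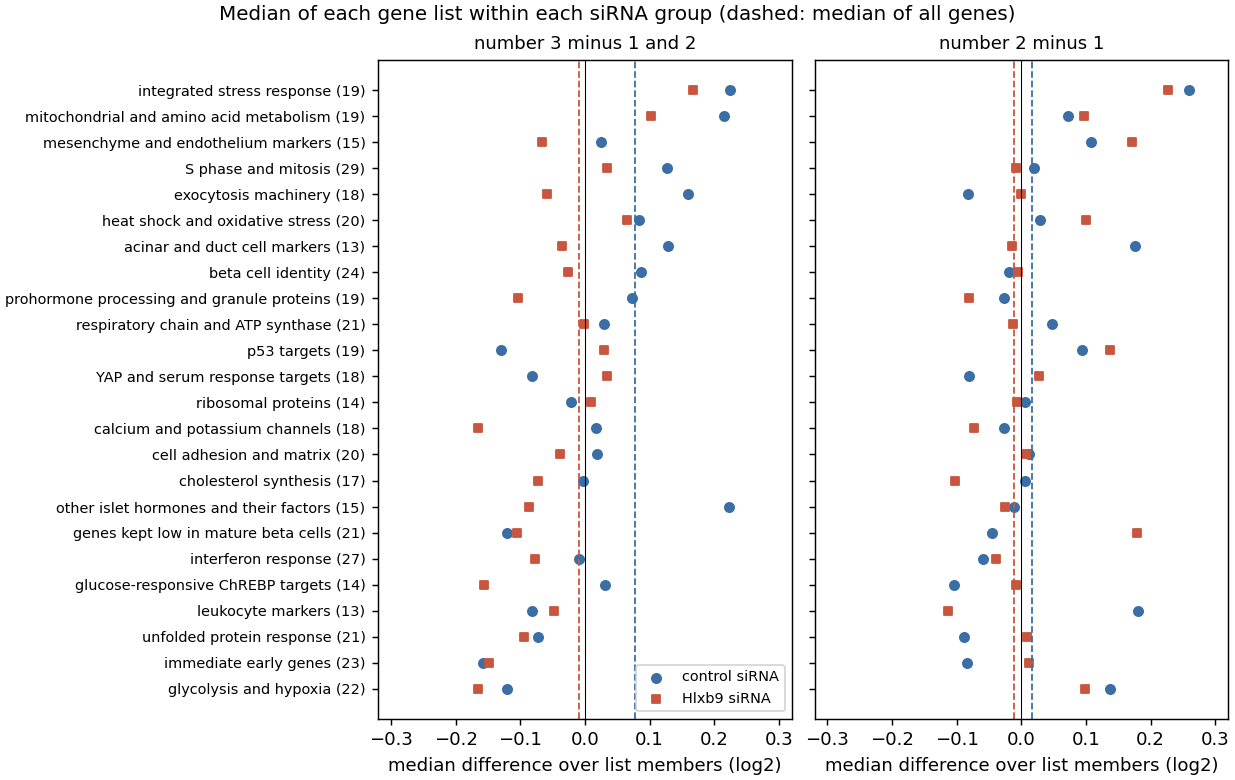
Median difference in log2 over the measured members of each of 24 lists (number of members in brackets), for number 3 against 1 and 2 (left) and number 2 against 1 (right), within control siRNA arrays (circles) and Hlxb9 siRNA arrays (squares). Dashed lines are the medians of all genes. Glycolysis and hypoxia genes sit at -0.12 and -0.17 on the left and at 0.14 and 0.10 on the right, and integrated stress response genes at 0.22 and 0.17 on the left and 0.26 and 0.23 on the right.

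Hormones of other islet cells included Ppy, and the list as a whole had no common direction. Of 15 measured members, 6 were higher and 9 lower on number 3, with a median of -0.03 (0.03 after centring), and both number 3 arrays lay below the other 4 for 4 of them. Pyy, encoding peptide YY and lying beside Ppy on the chromosome, read 8.08, 7.95 and 7.01 on control arrays 1, 2 and 3 and 8.37, 8.08 and 7.28 on Hlxb9 siRNA arrays 1, 2 and 3, a difference of -0.97 ± 0.12 (SE, limma adjusted p = 0.117). Sst, encoding somatostatin, was bright at 13.30, 13.16 and 12.91 on control arrays 1, 2 and 3 and 13.48, 13.27 and 12.54 on Hlxb9 siRNA arrays 1, 2 and 3, a difference of -0.58 ± 0.15. Gcg, encoding glucagon, lay the other way by 0.16, within a range of 12.82 to 13.15 on all arrays. Npy, encoding neuropeptide Y, was level at 0.0020 with signals of 13.79 to 13.88, and Cck, encoding cholecystokinin, differed by -0.11. Ghrl, encoding ghrelin, differed by 0.49, at 0.78 in controls and 0.19 after Hlxb9 siRNA. Hhex, a factor of somatostatin cells, and Neurog3, the factor of endocrine progenitors, were dim at 2.94 to 3.28 and 3.39 to 3.74. At an unadjusted limma p under 0.05, 3 members were lower, Ppy, Pyy and Sst, and 1 was higher, Ghrl.

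The upstream sequences of Ppy and Sst are shown because these hormone genes were among the members lower on number 3. Each is the 250 bases before the first RefSeq start listed for the gene, from build GRCm38.p6, 5' to 3' on the gene's strand.
Ppy, chr11:102101320-102101569, minus strand: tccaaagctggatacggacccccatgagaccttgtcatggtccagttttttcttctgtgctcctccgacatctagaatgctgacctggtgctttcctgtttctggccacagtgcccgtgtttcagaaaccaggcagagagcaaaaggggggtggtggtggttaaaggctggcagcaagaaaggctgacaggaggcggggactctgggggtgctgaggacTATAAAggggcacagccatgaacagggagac
Sst, chr16:23890845-23891094, minus strand: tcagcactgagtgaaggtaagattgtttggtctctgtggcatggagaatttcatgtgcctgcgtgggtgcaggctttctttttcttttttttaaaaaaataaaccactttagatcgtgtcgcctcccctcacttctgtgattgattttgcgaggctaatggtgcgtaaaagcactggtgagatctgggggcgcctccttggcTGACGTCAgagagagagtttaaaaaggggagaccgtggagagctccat
Capitals mark TATAAA in Ppy, 31 bases before the start, and TGACGTCA, the palindromic cAMP response element, in Sst, 48 bases before the start. In first promoters of this length, TATAAA on the gene's strand was found in 8.12% of 27025 genes and TGACGTCA in 1.62%. A match is a description of the letters, and the arrays do not measure binding.

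Beta cell identity genes had no common direction. Of 24 measured, 13 were higher and 11 lower on number 3, with a median of 0.02 (0.09 after centring) and of -0.03 within the Hlxb9 siRNA arrays. At an unadjusted limma p under 0.05 there were 2 higher, Slc2a2 and Insm1, and 2 lower, Ucn3 and Glis3. Insm1, an endocrine zinc-finger factor, differed by 0.43 ± 0.12 (SE) and Glis3, an activator of insulin transcription, by -0.29 ± 0.12. Ins2 differed by 0.02, Pdx1 by 0.08, Nkx2-2 by 0.12, Neurod1 by 0.13 and Slc30a8, the zinc transporter of insulin granules, by 0.09. Glp1r, the incretin receptor gene, read 7.82, 7.87 and 6.63 on control arrays 1, 2 and 3 and 7.87, 7.83 and 7.83 on Hlxb9 siRNA arrays 1, 2 and 3, so its difference rested on control replicate 3.

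Of 21 genes that mature beta cells keep low, 9 were higher and 12 lower on number 3, and their median was -0.05 (0.02 after centring). At an unadjusted limma p under 0.05, 5 were lower and 2 higher. Beside Ldha, the lower ones were Rest, a repressor of neuronal genes, at -0.87, Igfbp4, a binding protein of insulin-like growth factors, at -0.77, Cd302 at -0.59 and Oat, ornithine aminotransferase, at -0.35. Within the Hlxb9 siRNA arrays these were -0.47, -0.90, -0.20 and -0.42. The higher ones were Tgm2, a transglutaminase, at 1.04 with 1.56 in controls and 0.51 after Hlxb9 siRNA, and Smad3, a transducer of TGF-beta signals, at 0.42. Slc16a1, the lactate transporter that beta cells also keep low, differed by -0.07.

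Glycolysis and hypoxia genes tended to be highest on number 2 and lowest on number 3. On number 3, 15 of 22 measured members were lower and 7 higher than on 1 and 2, with a median of -0.14 (after centring 13 lower and 9 higher, with a median of -0.08), and 9 were lower and 0 higher at an unadjusted limma p under 0.05. On number 2, 15 were higher and 7 lower than on number 1, with a median of 0.11 (0.11 after centring), and 6 were higher and 0 lower at that p. The mean of numbers 1 and 2 enters the first comparison, so number 2 is part of each. Both also use the same variance estimate for each gene, and neither comes from separate arrays. None of these members passed (smallest limma adjusted p = 0.119, Ldha). The mean signal over the list, relative to each member's mean over all arrays, stood at -0.09, 0.09 and -0.20 on control arrays 1, 2 and 3 and at 0.10, 0.23 and -0.12 on Hlxb9 siRNA arrays 1, 2 and 3. Number 2 was highest and number 3 lowest in each group.

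Bnip3, a mitophagy receptor induced by hypoxia, read 10.45, 11.08 and 10.35 on control arrays 1, 2 and 3 and 10.99, 11.22 and 10.44 on Hlxb9 siRNA arrays 1, 2 and 3. Pdk1, a kinase that inhibits pyruvate dehydrogenase, read 8.33, 8.78 and 8.07 on the controls and 8.72, 9.01 and 8.30 after Hlxb9 siRNA. For both genes number 2 was highest and number 3 lowest in each group, as it was for Ldha. Slc2a1, the widely expressed glucose transporter GLUT1, did likewise, at 11.29, 11.61 and 10.87 on control arrays 1, 2 and 3 and 11.48, 11.83 and 11.21 on Hlxb9 siRNA arrays 1, 2 and 3. Adm, encoding the peptide adrenomedullin, differed by -0.66 on number 3 and by 0.38 on number 2, and Ankrd37 by -0.57 and 0.20. Core enzymes of glycolysis differed less on number 3, with Pgk1 at -0.14, Aldoa at -0.03, Pgam1 at -0.04, Pkm at 0.06 and Tpi1 at 0.08. Aldoc and Eno2, the isoforms of neurons and endocrine cells, differed by -0.51 and -0.49, of which -0.17 and -0.22 were seen after Hlxb9 siRNA. Egln3, an oxygen sensor and hypoxia target, differed by -0.38. Vegfa, a further hypoxia target, differed by 0.15, and Car9 and Hk2 were dim at 3.08 to 4.57. Ak4, which is induced by hypoxia but is no member of the list, read 7.53, 8.57 and 6.77 on control arrays 1, 2 and 3 and 7.81, 8.93 and 6.63 on Hlxb9 siRNA arrays 1, 2 and 3, with the same order.

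The upstream sequences of Ldha and Bnip3 are shown because these members were low on number 3 and high on number 2. They are taken as above.
Ldha, chr7:46845554-46845803, plus strand: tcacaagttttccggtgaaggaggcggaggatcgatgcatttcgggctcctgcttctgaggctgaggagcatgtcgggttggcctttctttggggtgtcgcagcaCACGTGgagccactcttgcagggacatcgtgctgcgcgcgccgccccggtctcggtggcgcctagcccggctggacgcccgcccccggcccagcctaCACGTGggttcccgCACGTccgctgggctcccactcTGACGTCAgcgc
Bnip3, chr7:138909507-138909756, minus strand: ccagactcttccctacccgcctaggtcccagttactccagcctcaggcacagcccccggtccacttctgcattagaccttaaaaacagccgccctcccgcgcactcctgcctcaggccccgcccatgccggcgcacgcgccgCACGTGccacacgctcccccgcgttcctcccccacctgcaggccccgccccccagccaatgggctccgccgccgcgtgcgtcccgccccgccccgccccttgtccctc
Capitals mark ACGTG on either strand, the core of the hypoxia response element, which also lies inside the E-box that ChREBP, USF and Myc bind, and in Ldha also TGACGTCA, 12 bases before the start. Ldha held 5 matches of ACGTG and Bnip3 held 2, where a palindrome counts on each strand. First promoters of 10 of the 23 list genes with an entry (43.5%) held ACGTG on either strand, against 16.6% of all 27025, and so did 6 of 17 in the integrated stress response list (35.3%). The hypoxia response element is known to lie elsewhere in many genes, and its letters say nothing about binding in these cells.

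**Figure D4:**
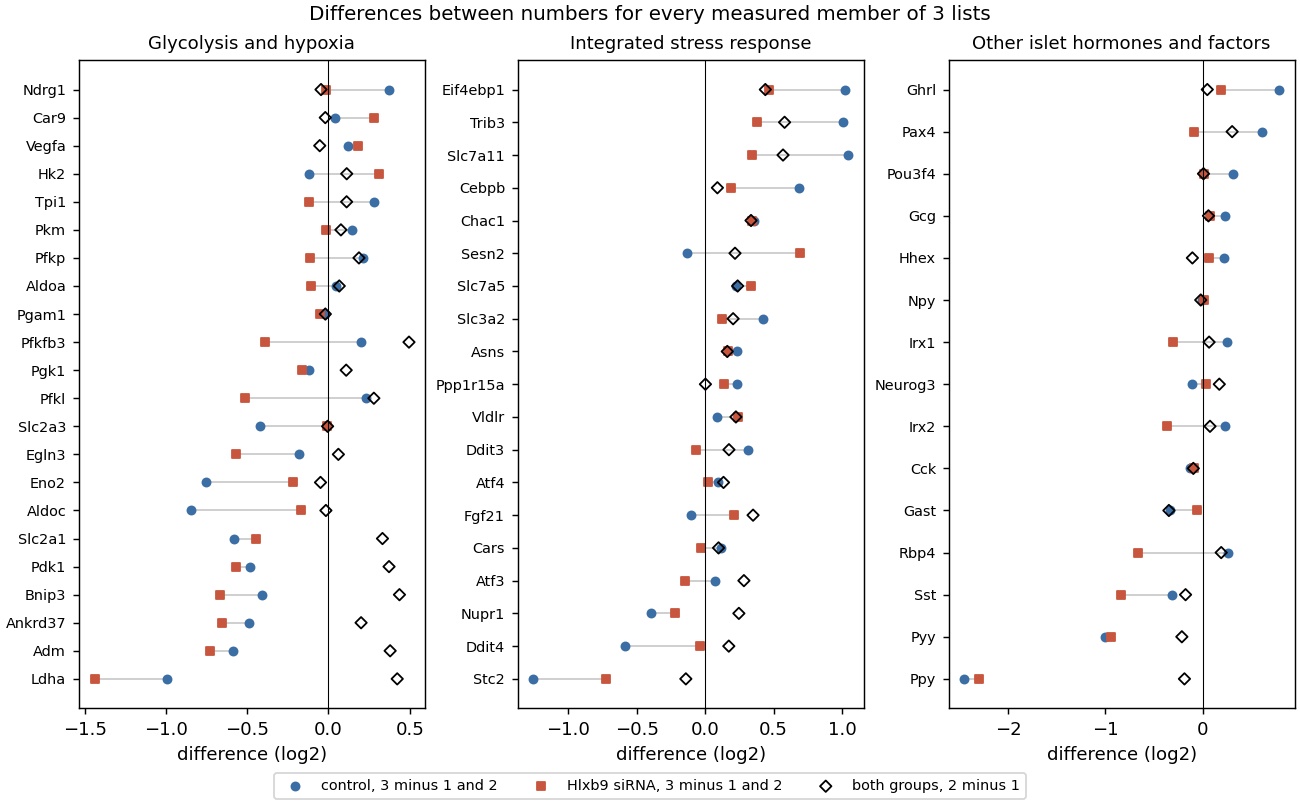
Differences in log2 for every measured member of 3 lists, ordered by the number 3 difference, with number 3 minus the mean of 1 and 2 in control siRNA arrays (circles) and Hlxb9 siRNA arrays (squares), and number 2 minus number 1 with the groups fitted together (diamonds). Ldha, Adm, Bnip3, Pdk1 and Slc2a1 have both filled symbols left of 0 and the diamond right of 0, and Ppy lies at -2.45 and -2.30.

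By their list mean, integrated stress response genes were lowest on number 1. Not every member followed, and Stc2 and Nupr1 were lowest on number 3 in each group. Of 19 measured members, 18 were higher on number 2 than on number 1, with a median of 0.22 (0.21 after centring), and 15 were higher on number 3 than on 1 and 2, with a median of 0.19 (0.25 after centring). At an unadjusted limma p under 0.05, 3 were higher and 0 lower on number 2, and 5 were higher and 2 lower on number 3, with none called. The list mean relative to each member's mean stood at -0.11, 0.12 and 0.19 on control arrays 1, 2 and 3 and at -0.22, 0.0034 and 0.02 on Hlxb9 siRNA arrays 1, 2 and 3. The arrays of number 1 were the lowest of each group, while numbers 2 and 3 were nearly level after Hlxb9 siRNA.

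Trib3, a pseudokinase induced by Atf4 and Ddit3, read 8.05, 8.72 and 9.39 on control arrays 1, 2 and 3 and 7.91, 8.40 and 8.53 on Hlxb9 siRNA arrays 1, 2 and 3. Eif4ebp1, a translation repressor, read 10.15, 10.52 and 11.36 on the controls and 9.75, 10.27 and 10.48 after Hlxb9 siRNA. Slc7a11, the cystine importer, read 5.54, 5.98 and 6.80 on the controls and 5.41, 6.11 and 6.10 after Hlxb9 siRNA. In all 3 the gap of number 3 was larger in the controls, at 1.02 against 0.47 for Eif4ebp1 and 1.04 against 0.34 for Slc7a11, while after Hlxb9 siRNA that of Trib3 was 0.38, and control replicate 3 is the array with low 5' signal, whose part in this was not tested. Chac1, a glutathione-degrading enzyme, was even across groups, at 0.36 in controls and 0.34 after Hlxb9 siRNA. Atf4 itself differed by 0.13 on number 2 and 0.06 on number 3. Stc2, encoding stanniocalcin 2, went against the list at -0.99 ± 0.15 on number 3 (SE, limma adjusted p = 0.163), with -1.25 in controls and -0.72 after Hlxb9 siRNA.

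Cth, cystathionine gamma-lyase, the enzyme that makes cysteine, is no member of the list and was likewise lowest on number 1, at 6.48, 7.22 and 7.56 on control arrays 1, 2 and 3 and 6.31, 7.27 and 7.45 on Hlxb9 siRNA arrays 1, 2 and 3. In the list of mitochondrial and amino acid metabolism, 15 of 19 were higher on number 3, with a median of 0.17, and 15 of 19 on number 2, with a median of 0.13. Phgdh, the first enzyme of serine synthesis, differed by 0.41 on number 2 and 0.37 on number 3, Psph, its last, by 0.37 and 0.21, and Shmt2, the mitochondrial serine hydroxymethyltransferase, by 0.41 and 0.55. Enzymes of the citric acid cycle in the list were level, with Cs at 0.01 and Mdh2 at 0.07 on number 3.

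The upstream sequence of Slc7a11 is shown because it carries the paired letters of the element that Atf4 and C/EBP factors bind.
Slc7a11, chr3:50443614-50443863, minus strand: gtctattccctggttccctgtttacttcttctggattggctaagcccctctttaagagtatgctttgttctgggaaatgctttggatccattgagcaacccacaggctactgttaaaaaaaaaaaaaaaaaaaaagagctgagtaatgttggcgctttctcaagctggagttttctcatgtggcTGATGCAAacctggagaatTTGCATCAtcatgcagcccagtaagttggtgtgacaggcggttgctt
Capitals mark TGATGNAA on either strand, 66 and 47 bases before the start. First promoters of 6 of 17 integrated stress response genes (35.3%) held this motif on either strand, against 3.53% of all 27025, and 0 of 23 in the glycolysis and hypoxia list.

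Of 21 unfolded protein response genes, 18 were lower and 3 higher on number 3, with a median of -0.11 (after centring 13 lower and 8 higher, with a median of -0.05), and 2 were lower and 0 higher at an unadjusted limma p under 0.05. These were Sdf2l1, a partner of chaperones, at -0.57 with -0.34 after Hlxb9 siRNA, and Creld2, a secreted disulphide isomerase, at -0.43 with -0.39. Hspa5, the chief chaperone BiP, differed by -0.05. Against number 1, number 2 had 8 higher and 13 lower, and the median was -0.02.

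Immediate early genes were lower on number 3 in 18 of 23, with a median of -0.13 (15 of 23 and -0.07 after centring, and -0.15 after Hlxb9 siRNA). At an unadjusted limma p under 0.05, 6 were lower, Nr4a3 at -0.44, Ier2 at -0.43, Jun at -0.37, Egr1 at -0.33, Dusp1 at -0.33 and Fosb at -0.53, and 1 was higher, Myc at 0.82. These genes encode transcription factors and a phosphatase that respond within minutes to growth signals. Myc was dim at 3.64 to 3.99 on 5 arrays and read 5.29 on control replicate 3, so its difference rested on that array.

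Genes of S phase and mitosis were higher in 21 of 29 on number 3, with a median of 0.06 (0.12 after centring, 0.03 after Hlxb9 siRNA). The median over all genes was 0.04 (0.10 after centring, -0.0094 after Hlxb9 siRNA). Cenpf, a kinetochore protein, differed by 0.81 in controls and 0.21 after Hlxb9 siRNA, and Mcm3, a replication licensing helicase subunit, by 0.74 and 0.11. Their larger differences were on control replicate 3.

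Excitability genes held single large members. Scn9a and Scn3a, voltage-gated sodium channels of neurons and beta cells, differed on number 3 by -0.98 ± 0.12 and -0.91 ± 0.15 (SE, limma adjusted p = 0.117 and 0.172), by -0.98 and -1.12 within the Hlxb9 siRNA arrays, and by -0.45 and -0.48 on number 2 against number 1. The ion channel list that holds them, otherwise of calcium and potassium channels, had 6 members higher and 12 lower, and their median was -0.02 (0.04 after centring, and -0.16 within the Hlxb9 siRNA arrays). Among glucose-responsive ChREBP targets, Thrsp, a regulator of lipid synthesis, differed by -1.09 on number 3 and -0.91 within the Hlxb9 siRNA arrays, Txnip, an inhibitor of thioredoxin, by -0.36, and Arrdc4, its arrestin-family relative, by -0.62 on number 2 against number 1. The median of these 14 targets was -0.06 (0.0028 after centring, and -0.16 within the Hlxb9 siRNA arrays). Mx1, an interferon-induced GTPase, differed by -1.20 and Oasl2 by -0.71 on number 3, with -1.53 and -0.95 within the Hlxb9 siRNA arrays, while the 27 measured interferon response genes had a median of -0.05 (0.01 after centring, and -0.08 within the Hlxb9 siRNA arrays).

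Among markers of other tissues, Cd34, a surface protein of endothelium and stroma, read 5.67, 6.32 and 4.75 on control arrays 1, 2 and 3 and 5.94, 6.56 and 5.32 on Hlxb9 siRNA arrays 1, 2 and 3. It had the order of Ldha, with number 2 highest and number 3 lowest in each group. Col1a1, a collagen chain, differed by -0.55 on number 3 and Vim, an intermediate filament of mesenchymal cells, by -0.64, and at an unadjusted limma p under 0.05 this list of 15 had 4 lower and 0 higher on number 3, and 3 higher and 0 lower on number 2. Its mean signal was 4.23 to 4.48 on the 6 arrays, with members at 2.62 to 6.63, and its median number 3 difference was 0.10, or -0.07 without control replicate 3. The mean relative to each member's mean stood at -0.05, 0.14 and 0.03 on control arrays 1, 2 and 3 and at -0.05, 0.04 and -0.11 on Hlxb9 siRNA arrays 1, 2 and 3. Acinar and duct markers stood at -0.08, 0.07 and 0.04 on the controls and -0.02, 0.0022 and -0.01 after Hlxb9 siRNA. Leukocyte markers, at -0.06, 0.04 and -0.03 on the controls and 0.03, -0.0047 and 0.03 after Hlxb9 siRNA, did not separate the numbers. Whether other cell types had a part in the number differences was not tested.

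Number 2 against number 1 gave fewer shared shifts than number 3, and no gene was called. Within the Hlxb9 siRNA arrays the spread was not clearly smaller. There the SD of the difference over probe sets was 0.223 between numbers 1 and 2, 0.229 between 2 and 3 and 0.284 between 1 and 3. The 8 genes named lower on number 2 were Dlk1, Unc5d, Fam163a, Lgi1, Ddit4l, Tmem35a, Shh and Plekhg6. Unc5d, a netrin receptor, read 6.82, 5.80 and 5.75 on control arrays 1, 2 and 3 and 6.73, 5.67 and 5.08 on Hlxb9 siRNA arrays 1, 2 and 3, a difference of -1.04 ± 0.18 between numbers 2 and 1 (SE). Shh, encoding the sonic hedgehog ligand, read 8.95, 8.14 and 7.62 on the controls and 9.19, 8.51 and 8.05 after Hlxb9 siRNA, with a difference of -0.75 ± 0.14. Both were highest on number 1 and lowest on number 3 in each group, as were Dlk1, Fam163a, Lgi1, Ddit4l and Tmem35a. Lgi1, a secreted synaptic protein, differed by -0.77 between numbers 2 and 1, Tmem35a, a chaperone of nicotinic receptors, by -0.75, Ddit4l by -0.73 and Fam163a by -0.94. Plekhg6 differed by -0.74 but was at opposite sides on number 3, at 0.49 in controls and -0.92 after Hlxb9 siRNA.

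The 8 genes named higher on number 2 were Igfbp3, Ak4, Usp17la, Glyat, Slc39a10, Cth, Crybb3 and Aldh1a7. Igfbp3, a binding protein of insulin-like growth factors, read 5.54, 6.72 and 6.53 on control arrays 1, 2 and 3 and 4.27, 5.79 and 5.27 on Hlxb9 siRNA arrays 1, 2 and 3, a difference of 1.35 ± 0.15 (SE, limma adjusted p = 1). Slc39a10, a zinc importer, read 8.65, 9.41 and 9.38 on the controls and 8.46, 9.31 and 9.33 after Hlxb9 siRNA, a difference of 0.81 ± 0.13. For both genes it was number 1 that stood apart, below numbers 2 and 3. Glyat, an acyltransferase of glycine, differed by 0.82, Aldh1a7, an aldehyde dehydrogenase, by 0.75, and Crybb3, a lens crystallin, by 0.94. Usp17la, a deubiquitinase, differed by 1.39 with a wide spread, at 1.01 in controls and 1.77 after Hlxb9 siRNA. The second probe set of Slc39a10 differed by 0.43. Other probe sets of Glyat differed by 0.60 and -0.02, the latter on signals of 3.34 to 3.60. Those of Ak4 differed by 0.52, 0.45, 0.26 and -0.12, on signals of 5.22 or less.

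**Figure D5:**
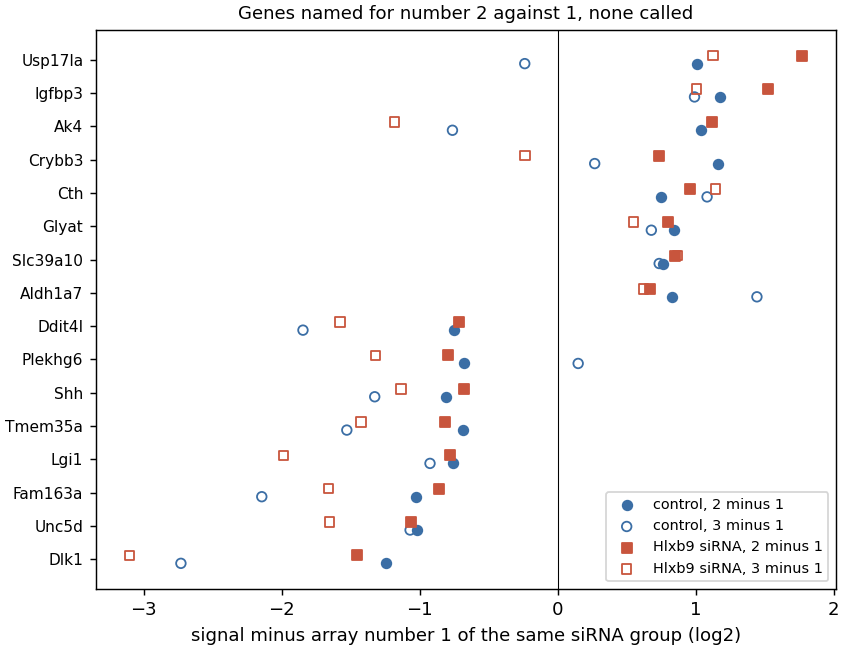
Signal of numbers 2 (filled) and 3 (open) minus that of number 1 of the same siRNA group in log2, for the 16 genes named for number 2 against 1, with control siRNA as circles and Hlxb9 siRNA as squares. Dlk1, Unc5d and 5 others of the 8 lower genes lie further left on number 3, and Ak4 changes side, from 1.03 and 1.12 on number 2 to below 0 on number 3.

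Metallothionein Mt2, a zinc-binding stress protein, also set number 1 apart, at 13.24, 12.60 and 12.49 on control arrays 1, 2 and 3 and 13.25, 12.54 and 12.58 on Hlxb9 siRNA arrays 1, 2 and 3. Targets of p53 were higher on number 2 than on number 1 in 15 of 19, with a median of 0.14, and had a median of -0.0061 on number 3 (0.06 after centring). Exocytosis genes were lower on number 2 in 14 of 18, with a median of -0.04, and granule genes in 15 of 19, with a median of -0.03, none at an unadjusted limma p under 0.05 in either list.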

How the data were processed

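RNA from 6 MIN6 samples, 6 ug each, was hybridised to Affymetrix mouse arrays, per the labels' protocols. The authors deposited log2 probe set signals, and the submitters' processing notes name RMA and Partek without settings or roles. From the 45101 probe sets, 64 control probe sets were left out and 45037 were tested, of which 34945 have 1 gene symbol, 932 several and 9160 none. Where a gene had several probe sets, the brightest on average stood for it. The values were fitted in R 4.3.3 with limma 3.58.1, with siRNA group and number as factors, 2 residual degrees of freedom and a prior of 4.412, and p-values were adjusted by Benjamini-Hochberg over all probe sets. The scripts were tested on simulated data with shifts planted on number 3. At an adjusted p of at most 0.05, limma recovered 2% of shifts of -1 log2 and 4% of shifts of 1. For shifts of -2 and 2 log2 it recovered 60% and 74%. A transcript that was not called may therefore still differ. Precision is limited by having 6 arrays, and the median moderated standard error of a difference was 0.13 for number 3 and 0.15 for number 2.

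Genes were named by rule: the 4 markers, then 12 per direction for number 3 and 8 for number 2 by the smaller of the within-group differences, called genes first, with signal above the median of all probe sets. The members, lists and rule were chosen with earlier results of these data known. Promoters came from RefSeq, build GRCm38.p6.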

Additional observations from a re-analysis of the deposited data

Results flagged for a closer look

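For 9 list means and 1 named gene, number 3 lay beyond both other numbers, on one side in the controls and on the other after Hlxb9 siRNA. This difference between the groups was not tested, since each side is 1 array against 2. The control difference minus the Hlxb9 siRNA difference, as a mean over the list, was 0.198 for interferon response genes (0.03 and -0.17), 0.152 for prohormone processing and granule proteins, 0.121 for exocytosis machinery and 0.0893 for beta cell identity genes. It was 0.0793 for cholesterol synthesis and 0.0679 for the respiratory chain and ATP synthase. It ran the other way at -0.169 for YAP and serum response targets, -0.132 for p53 targets and -0.0567 for ribosomal proteins. The control side rests on control replicate 3, the array with low 5' signal, whose part in these differences was not tested.

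Plekhg6 had the widest such gap, at 1.41. Its number 3 difference was 0.49 in controls and -0.92 after Hlxb9 siRNA.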

How the results depend on the processing

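No paired analysis was possible because the replicate number is itself the factor compared. With number 3 against 1 and 2, limma called 4 probe sets, and 0 with an offset of 32, 2 with dim probe sets left out, 2 without siRNA group in the fit, 2 over plain _at probe sets, 16 at an adjusted p of 0.1 and 0 at 0.01. Leaving out each array in turn gave 0 to 6076. The F test went from 3 calls to 0 with the offset, 0 with dim probe sets left out, 0 at 0.01 and 0 to 3459 when each array was left out. A fit without 1 array has 1 array for that number, assumed to vary like the others. Shared shifts, 651 for number 3 and 209 for number 2, were 190 and 51 with the offset, 424 and 119 without dim probe sets, 38 and 7 at a shift of at least 1, and 2588 and 1325 at 0.3. Centring, repeated quantile normalization, and a trended robust prior left the number 3 count at 5, 4 and 6 with all 4 shared, numbers 1 and 2 as 1 level gave 3 with 2 shared, and number 2 against 1 had 0 calls in every fit. With genes as means of their probe sets, 16 of 26 named genes were called. No called gene changed direction. The median number 3 difference turned sign for 9 of 24 lists without control replicate 3, among them beta cell identity (0.02 to -0.03), exocytosis (0.05 to -0.06), granule proteins (0.0072 to -0.10) and mesenchyme and endothelium (0.10 to -0.07), and for 10 of 24 lists after centring. Centring also moved the median over all genes, from 0.04 to 0.10. Over all named genes and settings, 42 values became called, 21 lost the call and 625 did neither, and among list medians 35 moved and 109 did not. The 625 include values within each siRNA group alone, which carry no test and could neither gain nor lose a call.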

Other observations

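The genes in this section were chosen after their values were seen, and none was called. Tac1, the precursor of substance P, read 6.99, 7.09 and 5.99 on control arrays 1, 2 and 3 and 7.85, 7.64 and 6.22 on Hlxb9 siRNA arrays 1, 2 and 3, a difference of -1.29 ± 0.16 (SE, limma adjusted p = 0.117). Cartpt, encoding the CART peptide of islets and brain, was bright at 12.39, 11.95 and 11.37 on the controls and 12.48, 12.06 and 11.42 after Hlxb9 siRNA, a difference of -0.83 ± 0.11. Both number 3 arrays lay below the other 4 for each gene. The same held for Pdyn and Gip, at -0.18 and -0.40. It did not for Npy at 0.0020, Vgf at 0.06 or Penk at 0.60. Nor did it for Nts at -0.22, Nmb at -0.11, Pomc at 0.23, Sct at -0.36 or Gal at -0.16. Of receptor genes, Cckar differed by -1.10, Cckbr by -0.71 and Nmbr by -0.97. Tph1, the enzyme that starts serotonin synthesis, differed by -0.88, and Reln, encoding the secreted glycoprotein reelin, by -1.24.

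Some liver-type genes read higher on number 3 and others did not. Hsd17b13, a lipid droplet protein, read 3.79, 4.23 and 5.62 on control arrays 1, 2 and 3 and 3.50, 3.86 and 5.17 on Hlxb9 siRNA arrays 1, 2 and 3, a difference of 1.55 (limma adjusted p = 0.0588), and Alb, encoding albumin, differed by 0.94. Ttr, encoding transthyretin, which beta cells also make, differed by -0.06 and Apoa2 by -0.15. Of the imprinted noncoding genes beside Dlk1, Mirg had its order, highest on number 1 and lowest on number 3 in each group, at -0.34 on number 3 and -0.42 on number 2 against 1. Meg3 differed by 0.11 on number 3 and -0.45 on number 2 against 1, and Rian by -0.04 and -0.03. Slc16a3, the lactate exporter, had the order of Ldha, at -1.08 on number 3 and 0.75 on number 2 against 1.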
